A study of Mus musculus with 3 samples.

Results

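Proteins that enter the secretory pathway fold in the endoplasmic reticulum (ER) with the help of lectin chaperones, which hold newly made glycoproteins by their sugar chains, and of protein disulfide isomerases, which form and reshuffle disulfide bonds. Calnexin (Canx, bound to the ER membrane) and calreticulin (Calr, in the ER lumen) are the general lectin chaperones, P4hb (protein disulfide isomerase) and Pdia3 (ERp57, which works with calnexin and calreticulin) are general isomerases. Male germ cells also make relatives of these proteins. They are calmegin (Clgn, a relative of calnexin), Calr3 (calsperin, a relative of calreticulin) and Pdilt (an isomerase family member that binds calmegin). Mice without Clgn, Calr3 or Pdilt are known to have infertile males whose sperm lack the surface protein ADAM3.

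The 7 genes were taken by symbol from the deposited gene lists, and all 7 were present among 32285 genes. The 3 testis members are Clgn, Calr3 and Pdilt, and the 4 general members are Canx, Calr, P4hb and Pdia3. They were followed over the stages of spermatogenesis in single cells of adult mouse testis, profiled with the 10x Genomics 3′ assay, in which each counted unique molecular identifier (UMI) stands for a captured messenger RNA molecule. There were 2 wildtype libraries of 1 mouse each (wildtype replicate 1 and wildtype replicate 2) and 1 library in which cells of 2 mice were mixed (the knockout library; genotype conditional Tex10 knockout). All mice were adult and of strain C57BL/6N, the tissue was freed into single cells with collagenase, and neither the Cre driver nor the deleted part of Tex10 is given. A conditional deletion may leave cells in which Tex10 is intact, and the pooled library does not separate its 2 mice.

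The libraries held 93418341, 96001773 and 147783171 UMIs in 9967, 10153 and 12918 barcodes, and 7519, 7704 and 11084 barcodes were kept. Of these, 54.8%, 39.9% and 64.5% lay in clusters of few UMIs and were kept out of the stage classes. Named germ cells numbered 3245, 4450 and 3693, with median depths of 15325, 11695 and 20155 UMIs. Any pair of libraries shared 27 to 30 barcodes. Germ cells were grouped by marker genes into spermatogonia-like, early spermatocyte-like, late spermatocyte-like, round spermatid-like and elongating spermatid-like classes, named below without the suffix. The 7 members were left out of the genes that clustered the cells. Levels are UMIs per 1000000 UMIs of the class (CPM), which are not divided by gene length because the assay counts 3′ ends. Wherever 3 values stand together, the first belongs to wildtype replicate 1, the second to wildtype replicate 2 and the last to the knockout library. Intervals are exact Poisson 95% intervals and cover counting error only, and "apart" means that such intervals did not overlap.

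Tex10 itself was at 143, 125 and 131 CPM in spermatogonia, 148, 138 and 131 CPM in early spermatocytes and 57.4, 55.5 and 48.7 CPM in late spermatocytes. It was at 22.1, 23.7 and 16.2 CPM in round and 3.44, 3.15 and 2.32 CPM in elongating spermatids, so its transcripts were present in each class of the knockout library. In late spermatocytes and round spermatids the knockout library was below both wildtype libraries with intervals apart, and in the other germ cell classes it was not. Over all genes at 10 CPM or more, 6.02% of values in the classes compared lay below both in this way. Because the deleted part is unknown, UMIs from the 3′ end may not report the deletion, and these values check the labels only weakly.

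The promoters of the general lectin chaperones are shown first because both carry the same rare motif. The ER stress response element, CCAAT and CCACG with 9 bases of any kind between them, is a textbook binding motif of the unfolded protein response, the program that raises ER chaperones when folding is overloaded. It was found on either strand in 39 of 32851 promoters of RefSeq genes (GRCm38.p6, 250 bases before to 50 after each start), a share of 0.119%, and Calr and Canx were among them. In Calr (chr8:84846932-84847181, minus strand) it begins 162 bases before the start and reads on the opposite strand, and in Canx (chr11:50325674-50325923, minus strand) it begins 145 bases before the start. The 250 bases before each start follow, 5′ to 3′ on the gene's strand, with the element in capitals.
Calr: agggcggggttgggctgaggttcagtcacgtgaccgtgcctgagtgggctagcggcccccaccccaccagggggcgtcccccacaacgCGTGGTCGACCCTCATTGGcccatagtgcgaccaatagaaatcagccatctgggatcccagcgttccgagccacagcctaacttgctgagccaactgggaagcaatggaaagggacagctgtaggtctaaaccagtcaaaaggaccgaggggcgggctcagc
Canx: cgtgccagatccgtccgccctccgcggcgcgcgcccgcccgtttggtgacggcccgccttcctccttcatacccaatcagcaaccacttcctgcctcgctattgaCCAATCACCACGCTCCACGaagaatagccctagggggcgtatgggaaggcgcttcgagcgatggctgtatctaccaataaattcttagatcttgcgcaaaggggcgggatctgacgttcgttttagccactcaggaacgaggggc

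These letters were not in the promoter windows of P4hb, Pdia3 or Pdilt, nor in either of the windows listed for Calr3. Clgn was not matched. Among 40 other ER folding genes, 32 had a promoter in the table, and 5 of them (Hspa5, Hsp90b1, Dnajc3, Pdia6 and Creld2) carried the element, a share of 15.6%. A match describes the sequence and does not show binding.

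The 3 testis members came up in sequence and not together: Clgn was highest in late spermatocytes, Pdilt in round spermatids, and Calr3 from round into elongating spermatids. The general members were highest in spermatogonia or early spermatocytes and were lower by CPM at each later class. For P4hb, round and elongating spermatids overlapped. The testis members made up 6.62%, 8.35% and 7.35% of the summed CPM of the 7 genes in spermatogonia, 51.7%, 49.9% and 49.8% in late spermatocytes, while in round spermatids the shares were 74.2%, 71.6% and 74.8%. The plot of the 7 genes by class shows that these positions were shared by the 3 libraries.

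**Figure D1:**
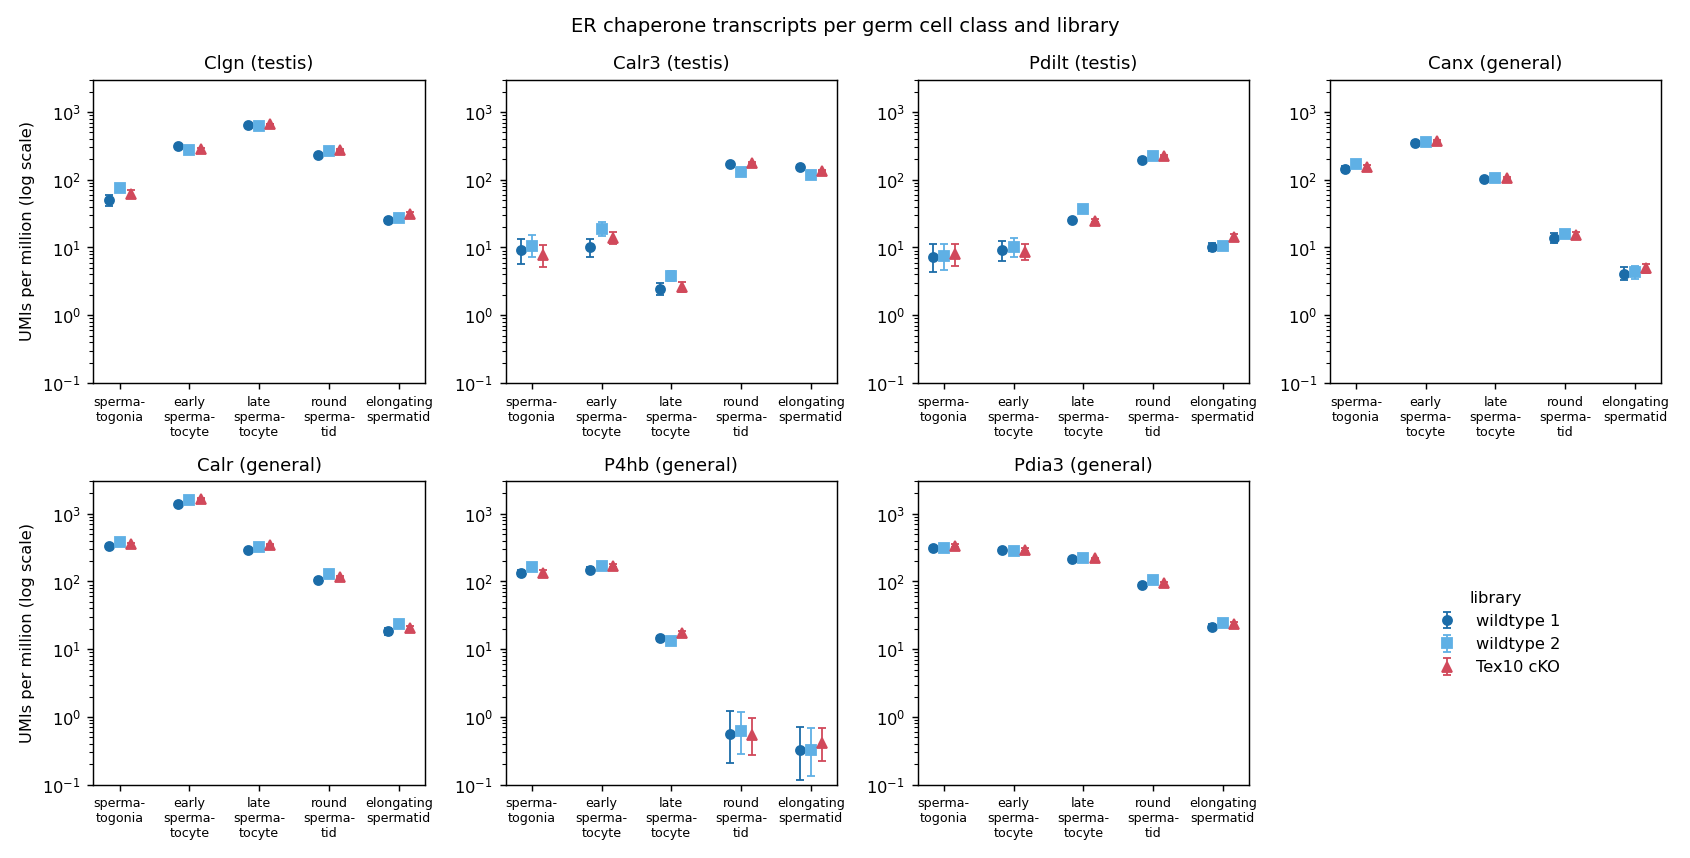
Level of each member (CPM, log axis) in the 5 germ cell classes. Points are the 3 libraries and bars are exact Poisson 95% intervals. Clgn is highest in late spermatocytes (634, 621 and 663 CPM) and Pdilt in round spermatids, where P4hb falls below 1 CPM. Calr3 is high in round and elongating spermatids.

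Clgn, the membrane-bound testis lectin, lies on chromosome 8 (GRCm38, 83389867 to 83428552, plus strand). Its level was 49.7, 75.2 and 61.7 CPM in spermatogonia, 310, 272 and 283 CPM in early spermatocytes and 634, 621 and 663 CPM in late spermatocytes. It was 234, 270 and 273 CPM in round spermatids and 25.3, 27.4 and 31.5 CPM in elongating spermatids. Late spermatocytes were thus the highest class in all 3 libraries, apart from the next class. Early spermatocytes and round spermatids were apart in wildtype replicate 1 and overlapped in the other libraries. A late spermatocyte held 29.8, 20.5 and 41.2 Clgn UMIs on average, and 99.8%, 99.5% and 99.6% of these cells had at least 1. After each cell was thinned to 2000 UMIs the shares were 69.1%, 67.7% and 71.1%, against 7.45%, 12.4% and 17% of peritubular myoid cells, the muscle-like cells of the tubule wall. Unthinned, 26.6%, 25.3% and 43.2% of myoid cells had a Clgn UMI, at median depths of 6006, 5276 and 7338 UMIs against 35265, 25034 and 45458 in late spermatocytes.

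Pdilt, the testis member of the isomerase family, lies on chromosome 7 (119486587 to 119523489, minus strand). It was at 7.16, 7.38 and 7.95 CPM in spermatogonia, 9.04, 10.3 and 8.64 CPM in early spermatocytes and 25.2, 37.1 and 24.8 CPM in late spermatocytes. Round spermatids held 199, 226 and 222 CPM and elongating spermatids 10.2, 10.5 and 14.5 CPM. Round spermatids were the highest class in each library, apart from every other class. The level in the late spermatocyte class came from a single cluster: without that cluster it was 2.44, 2.76 and 2.14 CPM.

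Calr3, the testis relative of calreticulin, lies on chromosome 8 (72424176 to 72443870, minus strand). It was at 9.04, 10.7 and 7.68 CPM in spermatogonia, 10, 18.9 and 13.8 CPM in early spermatocytes and 2.44, 3.82 and 2.64 CPM in late spermatocytes. Round spermatids held 170, 130 and 176 CPM and elongating spermatids 157, 118 and 137 CPM. The last 2 classes stood far above the others in all 3 libraries. Round and elongating spermatids overlapped in wildtype replicate 1 and were apart in wildtype replicate 2 and the knockout library. Their order depended on the scaling, as given below.

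The spermatogonial levels of the testis members were close to those of peritubular myoid cells, somatic cells that should lack them. Peritubular myoid cells held 49.4, 61.4 and 82.5 CPM of Clgn, 10.6, 23.3 and 19.9 CPM of Calr3 and 7.06, 10.6 and 17.1 CPM of Pdilt, on 4 to 58 UMIs. In every library the intervals of both cell types overlapped, and in no library was a testis member higher in spermatogonia with its interval apart. Transcripts of protamine 1 (Prm1), which packs DNA in elongating spermatids, were also present in spermatogonia at 1.75%, 1.96% and 1.92% of the highest germ cluster, and Calr3 at 1.78%, 2.61% and 1.9%. For Pdilt these shares were 3.27%, 3.15% and 3.28%, and for Clgn they were larger, with 7.39%, 11.1% and 8.78%. In the knockout library Clgn was higher in spermatogonia (61.7 CPM) than in its 49 Leydig cells (32.3 CPM), with intervals apart, while 26 Leydig cells of wildtype replicate 2 held 81.4 CPM. In early spermatocytes Calr3 (10, 18.9 and 13.8 CPM) and Pdilt (9.04, 10.3 and 8.64 CPM) also overlapped peritubular myoid cells in every library. These levels and the spermatogonial levels are not read here as expression, so increases of the testis members from spermatogonia may be understated.

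Canx lies on chromosome 11 (50293961 to 50325673, minus strand). It was at 145, 170 and 153 CPM in spermatogonia and 351, 357 and 374 CPM in early spermatocytes. It then stood at 102, 107 and 107 CPM in late spermatocytes, 13.8, 15.9 and 15.1 CPM in round spermatids and 4.13, 4.28 and 4.9 CPM in elongating spermatids. All 5 classes were apart from their neighbours in rank, in each library.

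Calr lies on chromosome 8 (84841850 to 84846934, minus strand), and 3.25% of the 31-base words at its 3′ end are shared with its pseudogene Calr-ps. It was at 336, 383 and 352 CPM in spermatogonia and 1413, 1578 and 1662 CPM in early spermatocytes, the highest level of any member. Late spermatocytes held 289, 326 and 350 CPM, round spermatids 105, 128 and 117 CPM, and elongating spermatids 18.3, 23.3 and 20.3 CPM. The order matched that of Canx, and only spermatogonia and late spermatocytes of the knockout library were not apart.

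P4hb lies on chromosome 11 (120560298 to 120573253, minus strand). It was at 133, 161 and 134 CPM in spermatogonia and 150, 167 and 172 CPM in early spermatocytes, and at 14.5, 13.1 and 17.4 CPM in late spermatocytes. In round spermatids it was at 0.563, 0.62 and 0.547 CPM, which are 6, 9 and 11 UMIs in all cells of the class. Elongating spermatids held 0.322, 0.33 and 0.416 CPM and overlapped round spermatids in each library. P4hb thus came close to the limit of detection in spermatids, where 2.01%, 1.58% and 2.59% of round spermatids had a UMI.

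Pdia3 lies on chromosome 2 (121413775 to 121438687, plus strand). It had the flattest course of the 7 genes over the first 3 classes, with 316, 309 and 336 CPM in spermatogonia, 294, 281 and 296 CPM in early spermatocytes and 212, 219 and 221 CPM in late spermatocytes. Round spermatids held 89.9, 105 and 94.2 CPM and elongating spermatids 21.6, 24 and 23.5 CPM. Spermatogonia and early spermatocytes were not apart in the wildtype libraries.

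From spermatogonia to round spermatids, on the log2 scale with 1 CPM added, the 3 testis members were at least 2-fold higher in each library, against 32.1% of 8541 genes at 20 CPM or more in either class, and the 4 general members were at least 2-fold lower, against 48.8% of them. The differences, as means of the wildtype libraries, were 2.02 for Clgn, 3.79 for Calr3, 4.69 for Pdilt, -3.32 for Canx, -1.63 for Calr, -6.53 for P4hb and -1.68 for Pdia3. The median of all these genes was -1.03, so CPM levels of most genes were lower in round spermatids. With median-of-ratios scaling over all classes the median was -0.28. Under it the testis members kept their directions, Canx and P4hb stayed at least 2-fold lower (-2.54 and -5.62), and Calr (-0.86) and Pdia3 (-0.91) no longer passed the 2-fold rule. That scaling gives 37.9% of genes higher and 41% lower.

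From spermatogonia to early spermatocytes, 3 of the 5 members tested (Clgn, Canx and Calr) were at least 2-fold higher in each library, against 13.2% of 7494 genes. In elongating spermatids protamine and transition protein transcripts took 26.4%, 26.7% and 25.1% of all UMIs, which lowers the CPM of every other gene. There Clgn was below its spermatogonial level by CPM (-1.18) and above it with median-of-ratios scaling (1.17), so its direction is not settled. For Calr3 (3.66 and 5.94), Pdilt (0.45 and 2.62) and the 4 general members the direction was the same under both. Which of round and elongating spermatids held more Calr3 depended on the scaling. Its wildtype mean difference from spermatogonia was 3.79 in round and 3.66 in elongating spermatids by CPM. With median-of-ratios scaling it was 4.43 and 5.94.

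The ratio of each testis member to its general relative went from below 0 to above 0 on the log2 scale, at late spermatocytes for the Clgn and Pdilt pairs and at round spermatids for the Calr3 pair. For Clgn to Canx the log2 ratio was -1.52, -1.17 and -1.29 in spermatogonia, -0.18, -0.39 and -0.40 in early spermatocytes, 2.62, 2.52 and 2.62 in late spermatocytes and 3.99, 4.0 and 4.10 in round spermatids. The calmegin transcript thus passed that of calnexin between early and late spermatocytes in all 3 libraries. For Calr3 to Calr it was -5.07, -5.03 and -5.35 in spermatogonia and -6.40, -6.08 and -6.59 in late spermatocytes. It was 0.70, 0.03 and 0.59 in the round and 3.03, 2.30 and 2.70 in the elongating class. In round spermatids wildtype replicate 2 held both at nearly the same level (130 and 128 CPM). With cluster 7, a late spermatocyte cluster described below, counted as round spermatids, the Calr3 to Calr ratio there was -0.77, -1.18 and -0.31, so the pair then crossed only in the elongating class. For Pdilt to P4hb it was -4.04, -4.27 and -3.91 in spermatogonia, 0.76, 1.43 and 0.49 in late spermatocytes and 7.0, 7.13 and 7.17 in round spermatids, the widest swing of the 3 pairs. Without cluster 7 the late spermatocyte ratio was -2.47, -2.33 and -2.79, so the crossing of this pair within that class rests on cluster 7. Pdilt was set beside Pdia3 as well: the log2 ratio was -5.28, -5.21 and -5.23 in spermatogonia and 1.14, 1.11 and 1.23 in round spermatids.

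**Figure D2:**
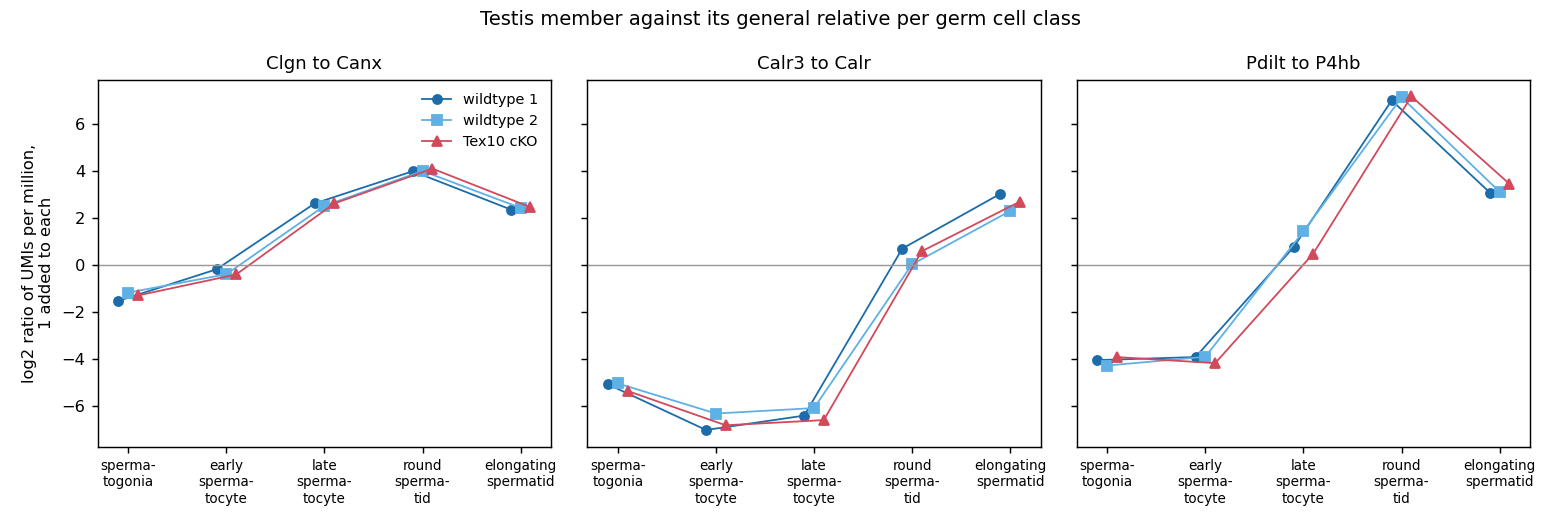
Log2 ratio of CPM (1 added to each) of each testis member to its general relative, by germ cell class, with a line for each library. The Clgn to Canx ratio is above 0 from late spermatocytes on, the Pdilt to P4hb ratio also from late spermatocytes on (with cluster 7 in that class), and the Calr3 to Calr ratio from round spermatids on.

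The mean change of the ratio from spermatogonia to round spermatids in the wildtype libraries was 5.34 ± 0.24 (SD, n = 2) for Clgn to Canx, 5.41 ± 0.50 for Calr3 to Calr and 11.22 ± 0.26 for Pdilt to P4hb, all in log2. In the knockout library it was 5.39, 5.93 and 11.09. With 1 knockout library, no test was made across groups.

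Finer steps were visible over the 12 germ cell clusters, put in order by class and, within a class, by falling Stra8, falling Piwil1, rising Tnp1 or rising Tssk6, which are markers of successive stages. Cluster 7, of 1035 cells, sits between the spermatocyte and spermatid classes. It held late spermatocyte markers (Aurka, a mitotic and meiotic kinase, at 198 CPM and Ccna1, the germ cell cyclin A, at 341 CPM) and acrosome genes of round spermatids (Acrv1 at 347 CPM and Spaca1 at 587 CPM, against 6.27 to 8.75 CPM and 13.2 to 25.1 CPM in the other late spermatocyte clusters). None of its 10 leading genes was a fixed marker, so its name as late spermatocyte rests on the marker score. The same holds for the names of the spermatid clusters 5, 10 and 14. Pdilt was at 99.4, 116 and 121 CPM in cluster 7 and at 2.08, 2.13 and 1.73 CPM in cluster 11 before it. Pdilt transcripts therefore appeared at this boundary, while Calr3 was still at 3.53, 3.99 and 3.49 CPM.

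Calr3 followed in the next clusters. It was at 29.6, 30.7 and 28.2 CPM in cluster 17, the first round spermatid cluster, at 246, 231 and 283 CPM in cluster 14, and at its highest in cluster 10, the first elongating spermatid cluster, with 509, 411 and 404 CPM. Cluster 1, the next, held 74.3, 67.4 and 63.3 CPM. Pdilt went down over these steps, with 219, 235 and 243 CPM in cluster 17 and 17.5, 19.1 and 30.6 CPM in cluster 10. In cluster 14 between them it was still at 188, 218 and 208 CPM, so Pdilt and Calr3 were both high there. Each testis member thus peaked in a different cluster, the same in all 3 libraries: Clgn in cluster 11, Pdilt in cluster 17 and Calr3 in cluster 10. The Clgn peak overlapped cluster 12 in both wildtype libraries, and the Pdilt peak overlapped cluster 14 in wildtype replicate 2. The Calr3 peak was apart from every other cluster.

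**Figure D3:**
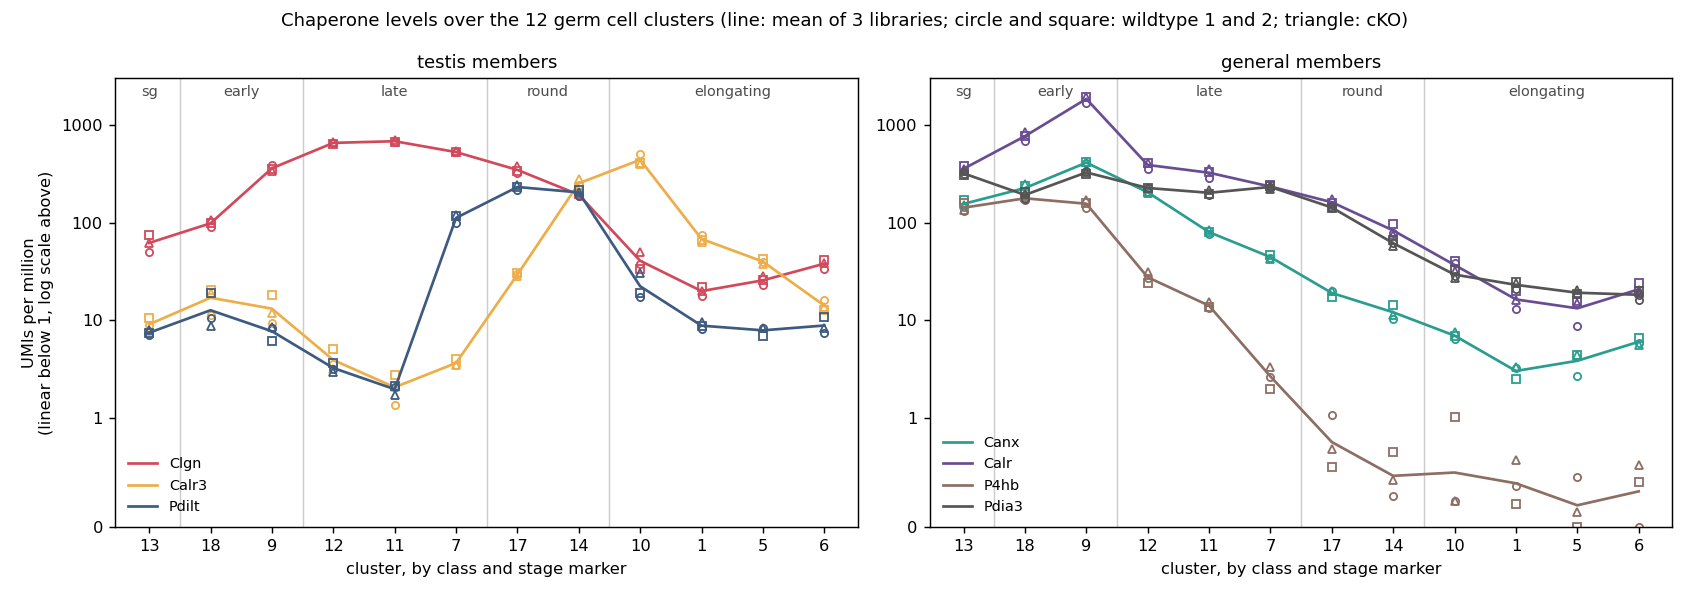
CPM of the members over the 12 germ cell clusters, numbered on the x axis and grouped by class (sg, spermatogonia). Lines are means of the 3 libraries and symbols the libraries. The y axis is linear below 1 and logarithmic above. Pdilt comes up at cluster 7 and Calr3 peaks at cluster 10.

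Among the general members, Canx and Calr both peaked in cluster 9, the early spermatocyte cluster with the highest Sycp1 (a protein of the synaptonemal complex). Canx was at 409, 414 and 415 CPM and Calr at 1680, 1958 and 1923 CPM there. In cluster 12, the first late spermatocyte cluster, they stood at 208, 207 and 200 CPM and at 355, 405 and 412 CPM. P4hb stepped down at the same point, from 142, 158 and 170 CPM to 27.3, 24.1 and 31.7 CPM, while Clgn went from 390, 353 and 340 CPM to 655, 647 and 669 CPM. Pdia3 was lower in the Stra8-rich cluster 18 (175, 208 and 195 CPM) than in the clusters on either side of it.

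Other ER folding genes were mixed up to early spermatocytes and mostly lower in round spermatids. The list of 40 holds lumenal heat shock proteins, their cofactors, further isomerases, oxidases and glycan-processing enzymes. From spermatogonia to early spermatocytes, 11 of the 34 tested were at least 2-fold higher in each library (13.2% of all genes were) and 4 lower (15% of all genes), and 19 were neither. Among the 11, and named here after their values were seen, were Hspa5 (BiP, the main ER Hsp70) at 368, 389 and 434 CPM against 1891, 2111 and 2320 CPM, and Hsp90b1 (GRP94, the ER Hsp90) at 662, 717 and 720 CPM against 1659, 1690 and 1713 CPM. Of the 9 of these 11 genes with a promoter in the table, 4 carried the ER stress response element.

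From spermatogonia to round spermatids, 3 of 32 tested were higher (32.1% of all genes were) and 22 lower (48.8% of all genes), with a median of -2.64 against -1.03 for all genes. The 3 largest differences downward were those of Ppib (an ER prolyl isomerase; -5.48), Uggt1 (the glucosyltransferase that returns misfolded glycoproteins to calnexin; -4.93) and Dnajc1 (a BiP cofactor; -4.47). The 3 largest upward were Ero1lb (an oxidase that recharges protein disulfide isomerases; 2.55), Tmx2 (a thioredoxin-related membrane protein; 1.87) and Tmx4 (another of that family; 1.16). Ero1lb was at 15.1, 24.2 and 24.4 CPM in spermatogonia and at 113, 120 and 128 CPM in round spermatids. With median-of-ratios scaling 6 were higher and 20 lower.

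The sperm surface list held 14 genes, among them ADAM proteins known as clients of the testis chaperones. Of these, 11 were at least 2-fold higher in round spermatids than in spermatogonia in each library and 2 lower (32.1% and 48.8% of all genes), with the same counts under both scalings. Adam3 and 6 others were highest in round spermatids in all 3 libraries: Adam1a, Ace (the testis form of angiotensin-converting enzyme), Lypd4, Pmis2, Spaca1 and Izumo1 (the sperm protein that binds the egg). Adam3 was at 487, 547 and 512 CPM in round spermatids. Adam2 was at 416, 388 and 395 CPM in late spermatocytes, its highest class, as was Adam1b with 84.5, 86.5 and 95.5 CPM. Tex101 and Ly6k, whose GPI-anchored proteins act on ADAM3, were highest in early spermatocytes (2273, 2133 and 2121 CPM for Tex101). Prss37 and Prss55, both serine protease family members, were highest in elongating spermatids, and Tpst2, a tyrosine sulfotransferase, in spermatogonia with at most 29.5 CPM. Prss37 in elongating spermatids was apart from round spermatids in wildtype replicate 2 only. The same held for Tpst2 between spermatogonia and early spermatocytes. Spaca1, Izumo1 and Tex101 were also markers that named the classes.

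The 10 unfolded protein response genes did not move as a group. Xbp1, Atf4, Eif2ak3 and Trib3 were highest in spermatogonia, and Atf6, Atf6b and Ern1 in early spermatocytes, each at 77.1 CPM or less. Trib3 reached only 2.26, 2.68 and 2.65 CPM. The highest class of Atf6b overlapped the next in every library. This was so in wildtype replicate 1 for Atf4, Atf6 and Trib3, and in wildtype replicate 2 for Atf6 and Ern1. Ddit3 (CHOP, a transcription factor of the response) was highest in late spermatocytes, at 218, 196 and 231 CPM. Creb3l4, a membrane-bound transcription factor enriched in testis, was highest in round spermatids with 591, 550 and 618 CPM. Herpud1, a protein of ER-associated degradation, was highest in elongating spermatids with 628, 615 and 511 CPM.

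For each member the 3 genes of most similar pattern were found by Pearson correlation of log2 CPM over 5 classes in 3 libraries (15 points) among 10459 genes. These are descriptions without a test, and the points share libraries and depth. For Clgn they were Arl3 (0.996), Morc2b (0.994) and Pih1d2 (0.994), for Calr3 Cst13 (0.996), Trim80 (0.995) and Gm50092 (0.995), and for Pdilt Spaca3 (0.996), Got1l1 (0.995) and Plac8l1 (0.994). For Canx they were Kif24, Pdia6 and Wnk1 (0.998 each), and for Calr Sycp1 (0.997), Far1 (0.993) and Mpp5 (0.993). For P4hb they were Ttc3, Fubp1 and Zfp407 (0.998 each), and for Pdia3 Psmd2 (0.999), Arf1 (0.999) and Glmn (0.998). Sycp1 was also a marker that named the classes.

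The knockout library was compared with each wildtype library by a rule of size. A gene was called where its log2 ratio was at least 1 in size and of the same sign against both wildtype libraries, and at least 2 times the log2 ratio between them, with 20 CPM or more in at least 1 library. No member was called in any of the 6 classes that had 50 cells or more in every library. The members tested and the share of all genes called were 5 and 0.352% in spermatogonia, 5 and 0.228% in early spermatocytes, and 5 and 0.722% in late spermatocytes. For round spermatids they were 5 and 1.07%, for elongating spermatids 4 and 1.32%, and for peritubular myoid cells 6 and 3.91%. With so few genes called in all, a count of 0 among at most 6 members is near the background.

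Over these 6 classes no member lay below both wildtype libraries with its interval apart, and 5 of 37 values at 10 CPM or more in a library lay above both. Over all genes at that level in these classes, 7.23% of values lay above both and 6.02% below both. In round spermatids the log2 ratio to the wildtype mean ranged from -0.05 (Pdia3) to 0.23 (Calr3), where the wildtype libraries themselves differed by 0.38 for Calr3. Calr in late spermatocytes was above both wildtype libraries, at 350 against 289 and 326 CPM, with intervals apart and a log2 ratio of 0.18. In early spermatocytes it was at 1662 against 1413 and 1578 CPM, also apart. P4hb in late spermatocytes was at 17.4 against 14.5 and 13.1 CPM (0.32), and Clgn there at 663 against 634 and 621 CPM (0.08), both apart. Among all genes, 3.38% lay above both wildtype libraries in this way in early spermatocytes and 16.5% in late spermatocytes. Cluster 7 gave 315, 479 and 241 cells to this class. Without it P4hb was at 18.1, 18 and 20.7 CPM, Calr at 309, 362 and 376 CPM and Clgn at 667, 663 and 692 CPM. In each cluster of this class the P4hb interval of the knockout library overlapped that of wildtype replicate 1. In cluster 11 Calr (286, 331 and 359 CPM) and Clgn (673, 674 and 703 CPM) were apart from both wildtype libraries, and in the other clusters of the class they were not. The share of all genes apart within a single cluster was not computed. The part of cell makeup within the classes in these differences was not tested.

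Pdilt in elongating spermatids was at 14.5 against 10.2 and 10.5 CPM, with intervals apart and a log2 ratio of 0.45, the largest in size among members in the germ cell classes. There 20% of all genes lay above both wildtype libraries in this way. In cluster 10 it was at 30.6 against 17.5 and 19.1 CPM, with intervals apart. Clgn in cluster 10 was also higher with intervals apart, at 50.6 against 38 and 33.9 CPM. In the other clusters of the elongating class (1, 5 and 6) the Pdilt intervals overlapped. No share of all genes was computed for cluster 10, so its differences cannot be set against a background. The summed round spermatid markers in that class were at 1841, 1848 and 1905 CPM, with all 13 detected in each library, and the summed elongating spermatid markers at 273983, 277189 and 261332 CPM. Their part in the result was not tested. In myoid cells Pdilt was at 17.1 against 7.06 and 10.6 CPM, on 12, 4 and 5 UMIs, with overlapping intervals.

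**Figure D4:**
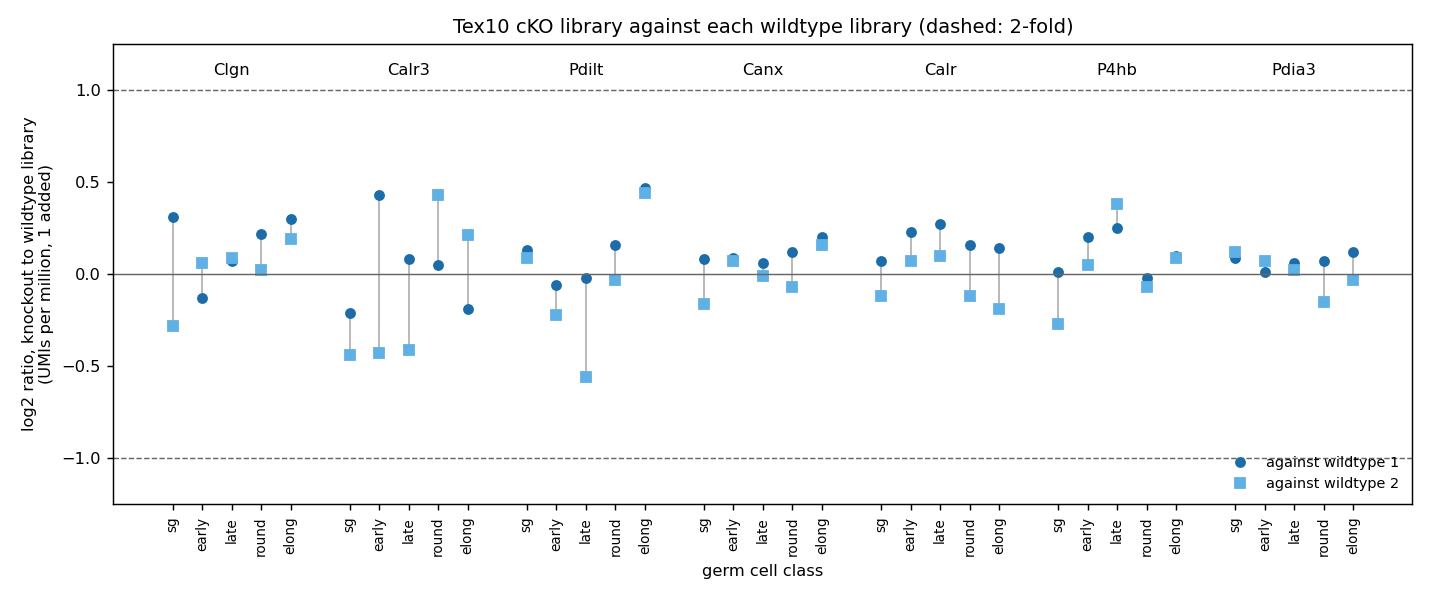
Log2 ratio of the knockout library to each wildtype library for the 7 members in the 5 germ cell classes (CPM, 1 added). Circles and squares are the ratios to wildtype replicates 1 and 2, a grey line joins them, and dashed lines mark 2-fold. All points lie inside the dashed lines.

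The 40 other ER folding genes gave 1 call over the 6 classes, Pdia5 (a disulfide isomerase family member) in myoid cells at 5.29, 6.36 and 28.5 CPM. None of the 14 sperm surface genes and none of the 10 unfolded protein response genes was called in any class. In round spermatids the median log2 ratio of the knockout library to the wildtype mean was 0.06 for the 5 members tested, -0.02 for 17 other ER folding genes, 0.01 for 12 sperm surface genes and 0.00 for all 5426 genes tested.

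Some clusters of few-UMI barcodes held the testis members at levels above any named cluster. Cluster 3, with 701, 462 and 453 barcodes and a median of 1877 UMIs, held Clgn at 1361, 1364 and 1606 CPM, Pdilt at 974, 1060 and 1074 CPM and Pdia3 at 670, 696 and 816 CPM. Pdilt was among its 10 leading genes, and Calr3 among those of clusters 15 and 21. Cluster 15 held Clgn at 918, 889 and 863 CPM, Calr3 at 1370, 1285 and 1291 CPM and Pdilt at 907, 862 and 982 CPM. Calr3 reached 2169, 2547 and 1841 CPM in cluster 21, of 132, 68 and 287 barcodes. The highest named cluster held at most 703 CPM of Clgn, 509 CPM of Calr3 and 243 CPM of Pdilt.

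Other ER and acrosome transcripts were also high in these clusters. In cluster 3 Acrv1 was at 1883 CPM, Spaca1 at 3967 CPM, Hsp90b1 at 889 CPM and Hspa5 at 507 CPM over the 3 libraries together, and P4hb was at 2.3 CPM. Cluster 16, led by mitochondrial transcripts, held Clgn at 1336, 1411 and 1173 CPM and Hspa5 at 1304 CPM, but Calr3 at 33.3, 16.7 and 34.8 CPM. What kind of particle these barcodes hold cannot be told from the counts.

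**Figure D5:**
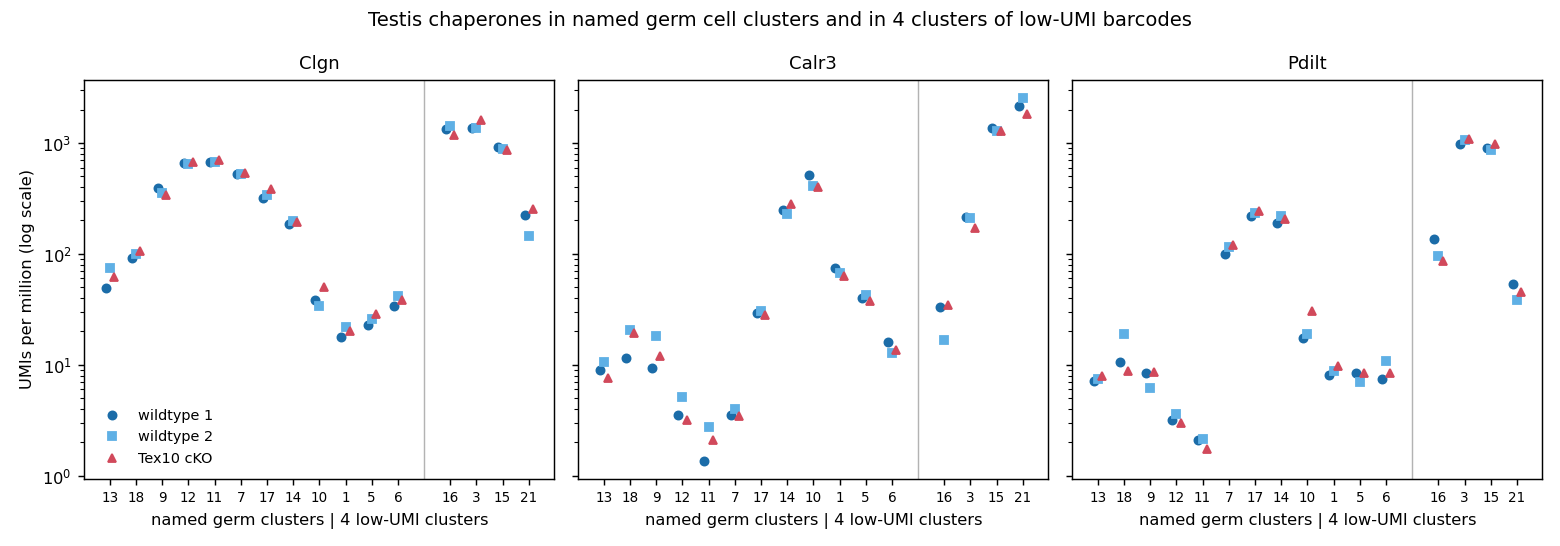
CPM (log axis) of the 3 testis members in the 12 named germ cell clusters, left of the line, and in 4 clusters of few-UMI barcodes, right of it, by library. Clgn is highest in cluster 3 or 16, Pdilt in cluster 3 and Calr3 in cluster 21, above the named clusters.

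Over all few-UMI barcodes together, the knockout library held less Pdilt (267, 222 and 138 CPM), Calr3 (239, 205 and 147 CPM), Clgn (527, 524 and 480 CPM) and Pdia3 (257, 251 and 215 CPM), each with its interval apart from both wildtype libraries, as did 17.8% of all genes at 10 CPM or more. The makeup of these barcodes differed: cluster 3 had 701, 462 and 453 of them, while cluster 0, where Pdilt was at 42.1, 35.8 and 37.8 CPM, had 1048, 876 and 3014. Within clusters the members went both ways. In cluster 3 Pdilt was at 974, 1060 and 1074 CPM, and Calr3 at 213, 210 and 170 CPM with overlapping intervals. Clgn (1361, 1364 and 1606 CPM) and Pdia3 (670, 696 and 816 CPM) were higher there, each with its interval apart from both wildtype libraries. Pdia3 was lower in cluster 8 (246, 271 and 148 CPM), also apart from both. In cluster 21 Calr3 was lower with its interval apart from both (2169, 2547 and 1841 CPM), and in cluster 16 Clgn was at 1336, 1411 and 1173 CPM, apart from wildtype replicate 2 only. For these single clusters the share of all genes apart was not computed, so their differences cannot be set against a background. The part of barcode makeup in the differences over all these barcodes was not tested.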

How the data were processed

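The authors deposited 1 table of raw UMI counts per library, which the file headers credit to Cell Ranger 4.0.0. The submitters' processing notes also name mm10 and Seurat 4.0.5. Positions came from GENCODE M21 (GRCm38) and promoters from RefSeq (GRCm38.p6), matched for 6 of the 7 members; the authors' annotation may differ. Whether counting used the strand is not given in the sources used here.

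Members and gene lists were chosen with earlier results of these data known. They name all 7 members, Tex10, the sperm surface and unfolded protein response lists, and from the ER list the called genes and the 3 largest rises and falls from spermatogonia to round spermatids.

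Barcodes with at least 1000 UMIs, 500 genes and at most 10% mitochondrial UMIs were kept (scanpy 1.11.5). Scrublet's automatic threshold marked 0, 1 and 0 barcodes, so the top 8% of its scores per library was left out. Counts were log-normalized, and 2000 variable genes without the members, 30 components and 15 neighbours gave Leiden clusters (resolution 1, leidenalg 0.10.2). UMI totals were divided by the lowest total among barcodes of the library as deposited, and clusters with a median ratio under 3 were called low-UMI, a limit taken over from earlier work on these data. A cluster took, of its 2 best-scoring types of 12, the name with more markers among its 10 leading genes. This rule replaced naming by score alone after a cluster led by Piwil1 was left unnamed by it. The order of clusters was chosen after seeing the data, in place of a diffusion ordering that did not follow the classes.

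UMIs were summed per library and class. Calls follow a rule of size, checked on simulated counts. With 1 knockout library, no p-value was computed. The 10 CPM minimum for comparing intervals was set after seeing the data. Class names are rebuilt and may differ from the study's.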

Additional observations from a re-analysis of the deposited data

How the results depend on the processing

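The count of members called in the knockout library was 0 under each of the 19 alternatives that were run, a 1.5-fold threshold and no CPM minimum among them. The change of the pair ratios from spermatogonia to round spermatids kept its direction in every alternative, while the class at which the Calr3 and Pdilt ratios crossed 0 depended on cluster 7. With a wildtype library left out it was 5.17 to 5.51 for Clgn to Canx, 5.06 to 5.77 for Calr3 to Calr and 11.03 to 11.41 for Pdilt to P4hb.

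Values that moved by more than the wildtype SD are given in the order Clgn, Calr3 and Pdilt pair where more than a single pair moved. Without leaving out doublets they were 5.03, 4.16 and 10.61. With the class taken from each cell's own marker score they were 4.99, 4.40 and 10.86. With cluster 7 counted as round spermatids they were 5.02, 4.08 and 10.30. A pseudocount of 5 CPM gave 4.98 for the Clgn and 8.90 for the Pdilt pair, and a pseudocount of 0.1 CPM gave 12.58 for the Pdilt pair, whose general member is near 0. The Calr3 pair was 6.28 at Leiden resolution 0.5 and 4.40 with the members among the variable genes. The Pdilt pair was 10.92 with median-of-ratios scaling and 10.89 with at least 2000 UMIs and at most 5% mitochondrial UMIs. Except for the pseudocounts, the cause was not tested.

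Of 707 knockout ratios per member and class under the alternatives, 109 moved by more than the wildtype spread, and 3 reached 1 in size. These were Pdilt in myoid cells with stricter barcode filters (1.23) and without wildtype replicate 2 (1.17), and Pdilt in late spermatocytes with each cell's own score (-1.02). The alternatives on naming, on cluster 7, on cluster weights and on the UMI totals were added after seeing the data. No paired analysis was possible because there is 1 knockout library, so the groups share fewer than 2 replicate numbers and no test was made.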
